A study of Mus musculus with 8 samples.

Results

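Noncoding genes and pseudogenes have annotated transcript starts of their own, and the peaks described here are those at such starts that lie away from every protein-coding start. Whether transcription begins at an annotated start was not checked. A member was a peak on chromosomes 1 to 19, X or Y whose summit lay within 1 kb of a transcript start of a GENCODE mm10 gene that is not protein-coding. The summit also had to lie more than 5 kb from every start of a protein-coding gene and outside soft-masked runs of 5 kb or more. Across 4 deposited peak lists, 1839 of 70200 peaks were members, and neither fold enrichment nor overlap between lists was used to choose them.

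The study profiled HA-tagged EHMT2 by ChIP-seq in EHMT2-dTAG-mcherry mouse embryonic stem cells (mESCs) of BL6/129 background, in which the endogenous EHMT2 of every group carries a degron, an HA tag and an mCherry reporter. Cells received DMSO or the degrader dTAG for 24 h, and chromatin was fixed with DSG and formaldehyde. The C29F4 list was called on merged replicates 4 and 5 of DMSO-treated cells with the anti-HA antibody C29F4. The ab9110 DMSO and ab9110 dTAG lists were each called on 1 ChIP library with the anti-HA antibody ab9110, and the fourth list on 1 input library of dTAG-treated cells. The study's methods give 2 independent clones treated with DMSO for its ChIP and do not state a clone for each list. They describe the ChIP with ab9110 as a separate experiment. With 1 list per condition there was no replicate check, so DMSO and dTAG were compared without p-values, and all intervals cover counting error over peaks, which are not independent samples. The lists hold no expression values, so the labelled cell type was not checked against its markers.

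EHMT2, also known as G9a, is a histone methyltransferase that together with EHMT1 places the repressive mark H3K9me2. Long noncoding RNA (lncRNA) genes are mostly transcribed by RNA polymerase II from promoters much like those of coding genes. Small nuclear RNA (snRNA) genes have compact promoters of their own and are copied many times in the genome, while processed pseudogenes are reverse-transcribed copies of messenger RNAs that usually arrived without a promoter. The degrader removes the tagged protein, so a peak in the dTAG list lies where HA signal was called although the tagged protein had been targeted for degradation.

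The 2 sequences below are shown because each is the strongest member of its kind, namely in both DMSO lists and not after dTAG, and only after dTAG. Each is the 300 bases around the summit on the plus strand of mm10, read from the RefSeq copy of that assembly, with CpG dinucleotides in capitals. The pseudogene 4930515G13Rik (chr17:21801499-21801798) had the highest fold of the C29F4 members, and Ftx (chrX:103622283-103622582) is an lncRNA of the X-inactivation centre.
4930515G13Rik: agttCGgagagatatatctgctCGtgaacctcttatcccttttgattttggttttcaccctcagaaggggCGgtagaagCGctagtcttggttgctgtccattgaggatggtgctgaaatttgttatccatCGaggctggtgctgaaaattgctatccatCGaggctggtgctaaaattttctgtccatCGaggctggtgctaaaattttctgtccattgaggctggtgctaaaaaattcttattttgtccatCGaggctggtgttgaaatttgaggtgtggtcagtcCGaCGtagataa
Ftx: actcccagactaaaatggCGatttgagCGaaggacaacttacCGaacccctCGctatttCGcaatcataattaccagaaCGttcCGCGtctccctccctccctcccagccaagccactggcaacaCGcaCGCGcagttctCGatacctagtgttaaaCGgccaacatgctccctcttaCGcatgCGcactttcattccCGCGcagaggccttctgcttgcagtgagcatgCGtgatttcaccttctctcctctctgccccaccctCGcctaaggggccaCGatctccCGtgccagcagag
The window of 4930515G13Rik held 10 CpG at 44.7% GC, and 180 of its 300 bases were soft-masked as repeats. In it the 12 letters atcgaggctggt stood 4 times. The window of Ftx held 21 CpG at 56.3% GC, with 52 soft-masked bases.

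A second set of sequences is shown because small RNA members had the highest share of overlap between the ab9110 ChIP lists among the classes. This was 30.7% of DMSO and 60.7% of dTAG members of that class, and lncRNA members were more in number. Some of these small RNA genes have near-identical copies. Of the genes shown, Gm25064 and Gm23472 had a member in dTAG alone and Gm22823 in DMSO alone. Each runs 5′ to 3′ along the gene's strand, with 60 bases before the gene in lower case and its first 40 bases in capitals. Rnu1b1 (chr3:96360078-96360177) and Rnu1b6 (chr3:96460150-96460249) encode U1 RNA of the spliceosome, and Rnu2-10 (chr11:101658178-101658277), Gm24950 (chr11:101641688-101641787) and Gm23472 (chr1:72236886-72236985) are U2 genes or copies. Rnu3b1 (chr11:87443177-87443276) encodes U3, a small nucleolar RNA that processes ribosomal RNA. Gm25064 (chr9:63133223-63133322) and Gm22823 (chr14:41247626-41247725) are copies of Rnu6, the gene of U6 RNA.
Rnu1b1: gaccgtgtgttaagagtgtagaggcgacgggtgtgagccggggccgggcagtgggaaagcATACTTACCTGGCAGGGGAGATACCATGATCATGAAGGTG
Rnu1b6: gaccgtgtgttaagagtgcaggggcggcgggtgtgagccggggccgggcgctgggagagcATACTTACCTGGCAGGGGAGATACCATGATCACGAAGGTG
Rnu2-10: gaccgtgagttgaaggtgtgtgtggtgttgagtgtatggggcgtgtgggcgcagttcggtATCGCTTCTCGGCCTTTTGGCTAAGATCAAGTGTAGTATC
Gm24950: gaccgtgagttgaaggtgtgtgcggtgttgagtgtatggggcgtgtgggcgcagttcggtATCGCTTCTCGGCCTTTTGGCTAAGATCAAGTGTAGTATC
Gm23472: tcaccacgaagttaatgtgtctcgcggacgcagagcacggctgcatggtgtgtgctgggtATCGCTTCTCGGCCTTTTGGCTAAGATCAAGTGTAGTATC
Rnu3b1: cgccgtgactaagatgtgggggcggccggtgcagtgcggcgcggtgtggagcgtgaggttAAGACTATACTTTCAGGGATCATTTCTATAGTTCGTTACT
Gm25064: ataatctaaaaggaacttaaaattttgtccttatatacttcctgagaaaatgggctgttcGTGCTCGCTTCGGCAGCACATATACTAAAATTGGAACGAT
Gm22823: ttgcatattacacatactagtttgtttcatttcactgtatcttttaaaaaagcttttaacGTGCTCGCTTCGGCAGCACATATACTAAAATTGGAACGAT
Rnu1b1 and Rnu1b2 had the same 165 gene bases and the same 60 bases before them. Rnu1b6 shared 147 gene bases and 54 bases before the gene with Rnu1b1, compared position by position. The 4 genes Rnu3b1 to Rnu3b4 had the same 215 bases and the same 60 before them. Gm25064 and Gm22823 have the gene sequence of Rnu6 at 100% identity. Of the 60 bases before them, 16 and 15 match those before Rnu6, compared position by position without gaps. The authors kept 1 location for a read with several equally good ones, so the placing of a peak among such copies is uncertain.

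The C29F4 list held 232 members near 227 genes, the ab9110 DMSO list 1137 near 1073 genes, the ab9110 dTAG list 433 near 417 genes and the input list 37 near 36 genes. Members were 2.11% of the 11010 C29F4 peaks, 2.79% of the 40816 DMSO peaks, 2.65% of the 16324 dTAG peaks and 1.81% of the 2050 input peaks. The lowest background at the summits gives the relative depth of a list, and it was 3.64 fragments in C29F4, 2.11 in the DMSO list, 1.23 in the dTAG list and 0.978 in the input. The median member rested on 27 fragments at its summit in C29F4, 14 in DMSO, 12 in dTAG and 10 in the input.

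Fold enrichment, the authors' ratio of fragments to background at the summit, ranged among members from 1.91 to 12.7 in C29F4, from 2.12 to 10.6 in DMSO and from 2.69 to 13.1 in dTAG. The median was 3.44 in C29F4 against 3.67 over all its peaks, 3.22 in DMSO against 3.28, and 3.91 in dTAG against 3.78. Members were therefore peaks of middling strength in every ChIP list. Among the top 10 percent of their own list by fold stood 10 C29F4 members (4.31%), 73 DMSO members (6.42%), 47 dTAG members (10.9%) and 0 of the 37 input members.

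lncRNA starts were the most frequent class in every ChIP list. They made up 104 C29F4 members (44.8%), 519 DMSO members (45.6%) and 233 dTAG members (53.8%). Pseudogenes followed with 98 (42.2%), 399 (35.1%) and 100 members (23.1%). Small RNAs had 18 (7.76%), 137 (12%) and 61 (14.1%). The class TEC, transcripts that still await experimental evidence, had 12 (5.17%), 80 (7.04%) and 38 (8.78%), and starts of immune receptor segments had 0, 2 and 1.

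The pseudogene share of the dTAG members was 12 percentage points below that of the DMSO members (95% Newcombe interval of the difference −16.7 to −7.00) and the lncRNA share 8.16 points above it (2.63 to 13.6). For small RNAs the difference of 2.04 points had an interval of −1.55 to 6.04, which includes 0. The DMSO library was the deeper of the pair. After its summits were thinned to 58.2% of their fragments and held to the lowest p of the dTAG list, 16264 DMSO peaks remained, 420 of them members. Pseudogenes were then 34.3% and lncRNA starts 46.9% of the DMSO members, and the dTAG list differed from these by −11.2 points (−17.2 to −5.13) and 6.91 points (0.197 to 13.5). This comparison at like depth was chosen after the data were seen.

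Members were denser than peaks in other sequence far from coding starts. Of the genome, 52.2 Mb could hold a member, and these were compared with the remaining sequence more than 5 kb from coding starts and outside long runs, whose peaks are called distal here. Peaks per Mb at noncoding starts were 1.36 times (exact 95% interval 1.19 to 1.54) those of distal sequence in C29F4, 1.72 times (1.62 to 1.82) in DMSO and 2.67 times (2.42 to 2.93) in dTAG. In the input the ratio was 1.28, and its interval of 0.9 to 1.76 includes equality. The ChIP lists thus met these starts more often than distal sequence, with the highest ratio in dTAG. The ratios of C29F4 and DMSO lay within the interval of the input, so they are not shown to exceed it.

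The classes differed in this density, for which a peak counted in each class with a start within 1 kb. Around lncRNA starts the ratio was 2.05 in C29F4, 2.7 in DMSO and 5.07 in dTAG, and around small RNA starts it was 0.716 (0.438 to 1.11), 1.42 and 2.91. Pseudogene starts had ratios of 1.32, 1.39 and 1.43. In the input the ratio was 1.17 (0.559 to 2.14) at lncRNA, 1.48 (0.596 to 3.05) at small RNA and 1.08 (0.591 to 1.81) at pseudogene starts. The interval of the pseudogene ratio in dTAG (1.17 to 1.74) overlapped those in DMSO (1.26 to 1.53) and C29F4 (1.08 to 1.60). The plot of peak density by class shows these ratios with their intervals.

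**Figure D1:**
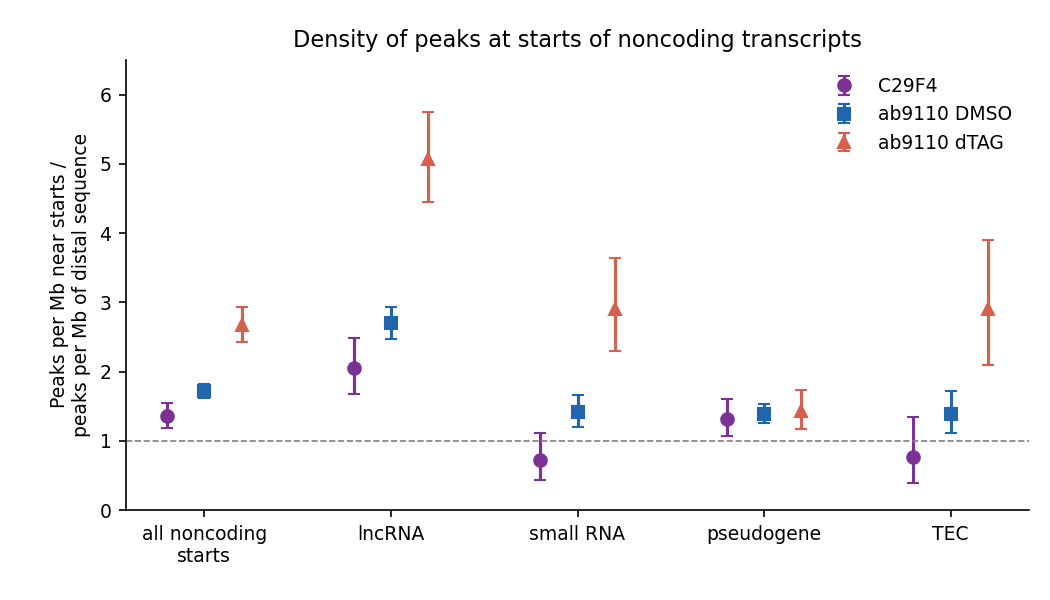
Peaks per Mb at noncoding starts divided by peaks per Mb of distal sequence for each gene class in the C29F4, ab9110 DMSO and ab9110 dTAG lists, with exact 95% intervals that cover counting error. lncRNA starts run from 2.05 in C29F4 to 5.07 in dTAG, while pseudogene starts stay between 1.32 and 1.43.

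Counted by genes, 25848 noncoding genes had a start that could hold a member. A member lay within 1 kb of 229 of them (0.886%) in C29F4, 1147 (4.44%) in DMSO, 475 (1.84%) in dTAG and 40 (0.155%) in the input. Among lncRNA genes the share was 1.49% in C29F4, 7.37% in DMSO and 3.58% in dTAG. Among pseudogenes it was 0.837%, 3.42% and 0.871%. Genes of the type processed_transcript, spliced noncoding transcripts, were met most often of the types with over 100 eligible genes, 55 of 428 (12.9%) in DMSO and 39 (9.11%) in dTAG. Most noncoding starts held no peak in any list.

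Summits lay close to the start more often than the sequence open to them. Sequence within 250 bp of a start was 26.1% of the eligible sequence, and it held 37.1% of C29F4 members (95% interval 30.8 to 43.6), 40.3% of DMSO members (37.4 to 43.2) and 50.3% of dTAG members (45.5 to 55.2). Among lncRNA members the shares were 48.1%, 47.2% and 56.7%. Small RNA members had 11.1% (2 of 18) in C29F4, 36.5% (50 of 137) in DMSO and 59.0% (36 of 61) in dTAG. Pseudogene members had 32.7% (23.5 to 42.9), 34.8% (30.2 to 39.7) and 36.0% (26.6 to 46.2), where 25.5% of the sequence open to them lay there, so the excess was outside the interval in both ab9110 lists and within it in C29F4.

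The median distance from summit to start was 362 bp in C29F4, 338 bp in DMSO and 250 bp in dTAG. For small RNAs it was 609.5 bp, 424 bp and 154 bp in the same lists. Summits were not placed mainly on the upstream side, where 48.3% of C29F4, 46.8% of DMSO and 49.9% of dTAG members had theirs. In the thinned DMSO list 40.2% of members lay within 250 bp, and the dTAG share was 10.1 points above it (3.43 to 16.7).

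**Figure D2:**
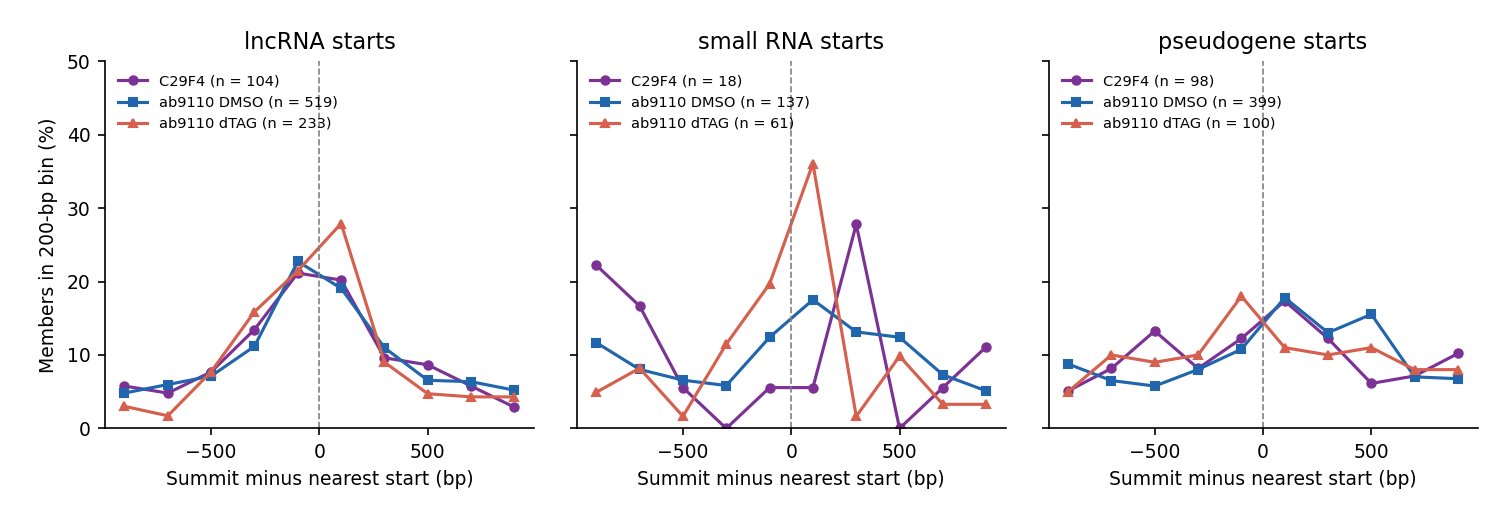
Share of members (percent) by position of the summit relative to the start in 200 bp bins, upstream to the left, for lncRNA, small RNA and pseudogene members of the C29F4, ab9110 DMSO and ab9110 dTAG lists. Small RNA and lncRNA members of the dTAG list peak at the start, and pseudogene members are spread over the whole window.

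Of the 232 C29F4 members, 134 overlapped an ab9110 DMSO peak by at least 1 bp (57.8%, exact interval 51.1 to 64.2), where 67 percent of all C29F4 peaks did. An ab9110 dTAG peak overlapped 40 of them (17.2%), against 21.7 percent of all C29F4 peaks, and 100 overlapped DMSO and not dTAG (43.1%), against 46.1 percent. The members stood near distal peaks, of which 60%, 14.8% and 46% did so, and the intervals of all 3 differences included 0. Peaks within 1 kb of a coding start overlapped more, 76.8% in DMSO and 36.4% in dTAG. Both ab9110 ChIP lists were overlapped by 34 C29F4 members (14.7%) and neither of them by 92 (39.7%), where 20.8 percent and 32.2 percent of all C29F4 peaks did so. After the thinning of DMSO summits described above, the share of C29F4 members in DMSO was 37.5% and the share in DMSO and not dTAG 25.9% (60 of 232). An input peak overlapped 0 of the 232 (exact interval 0 to 1.58%), where 0.981 percent of all C29F4 peaks overlapped one.

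By class, 64.4% of lncRNA, 53.1% of pseudogene, 58.3% of TEC and 44.4% of small RNA members of C29F4 overlapped a DMSO peak. The difference of 11.4 points between lncRNA and pseudogene members had an interval of −2.17 to 24.4. Both ab9110 ChIP lists were overlapped by 20.2% of lncRNA and 9.18% of pseudogene members, a difference of 11 points (1.13 to 20.7). Too few small RNA members were present in C29F4 for a narrow comparison.

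The 5 members with the highest C29F4 folds among the 100 found in DMSO and not in dTAG were 4 pseudogenes and an snRNA copy. The summit at 4930515G13Rik (peak chr17:21801097-21802066) lay 9 bp from the start, with a fold of 12.7 in C29F4 and 7.07 in DMSO. Gm45402, a processed pseudogene (chr7:10325155-10326323), had 12.2 and 8.14, with the summit 830 bp from the start. Gm6501 (chr19:11121141-11122240) had 9.63 and 4.34 with the summit 66 bp before the start, and its window had 61.7% GC. The other 2 lay farther from their starts. Gm16318 (chr13:89661252-89662246), a processed pseudogene, had 9.49 and 4.88 at 886 bp. Gm23502 (chr14:21812926-21813367), whose 145 bases were 92.7% identical to those of Rnu12, the U12 gene of the minor spliceosome, had 9.19 and 8.15 at 364 bp.

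Among the 34 C29F4 members found in both ab9110 ChIP lists, the processed transcript 1700012D14Rik had the highest C29F4 fold. Its folds were 11.5 in C29F4, 8.27 in DMSO and 4.79 in dTAG. The lincRNA 1700019J19Rik (chr9:14100694-14102530) followed with 8.46, 8.97 and 5.35, and its summit lay 82 bp downstream of the nearest transcript start, which is inside the gene. The next was the unitary pseudogene 4930519F16Rik (chrX:103311544-103312060), 22 bp from the start, with 5.82, 3.99 and 4.44. The processed pseudogene Gm42774 had 5.81, 5.59 and 3.42, and the TEC gene Gm43705 5.77, 8.13 and 4.06, with summits 641 and 856 bp from the start. No test was made between folds of different lists, which rest on different depths.

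In the other direction, 138 of 1137 DMSO members overlapped a C29F4 peak (12.1%), where 18.1 percent of all DMSO peaks did. This was 3.23 points below distal DMSO peaks (−5.06 to −1.16). The DMSO members that overlapped a C29F4 peak had a median fold of 4.07, and the 999 others a median of 3.22.

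The comparison of DMSO with dTAG separated the classes more clearly. Of the 1137 DMSO members, 218 overlapped a dTAG peak (19.2%, 16.9 to 21.6), close to the 18.9 percent of all DMSO peaks. Over all peaks, however, coding starts are included, of which 56.8% overlapped a dTAG peak, while distal peaks did so in 10.0%. Members exceeded distal peaks by 9.15 points (6.94 to 11.6). The share was 30.7% for small RNA members (42 of 137), 24.3% for lncRNA members (126 of 519), 17.5% for TEC members (14 of 80) and 9.02% for pseudogene members (36 of 399). Small RNA members stood 21.6 points (13.8 to 30.2) and lncRNA members 15.3 points (10.5 to 19.8) above pseudogene members. Pseudogene members differed from distal peaks by −0.996 points, with an interval of −3.46 to 2.24.

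Of the 433 dTAG members, 206 overlapped a DMSO peak (47.6%), where 46.8 percent of all dTAG peaks did. The classes followed in the same order, with 60.7% of small RNA (37 of 61), 52.4% of lncRNA, 42.1% of TEC and 31.0% of pseudogene members. The difference was 29.7 points (13.8 to 43.6) between small RNA and pseudogene members and 21.4 points (9.80 to 31.7) between lncRNA and pseudogene members. A C29F4 peak overlapped 39 dTAG members (9.01%), where 14.8 percent of all dTAG peaks overlapped one, and among small RNA members this was 1.64% (1 of 61). Only 26.1% of the dTAG members (113 of 433) overlapped a peak of the thinned DMSO list. In the forward direction at that depth, 51.9% of small RNA, 29.9% of lncRNA and 12.5% of pseudogene members overlapped a dTAG peak, and TEC members were not recomputed.

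**Figure D3:**
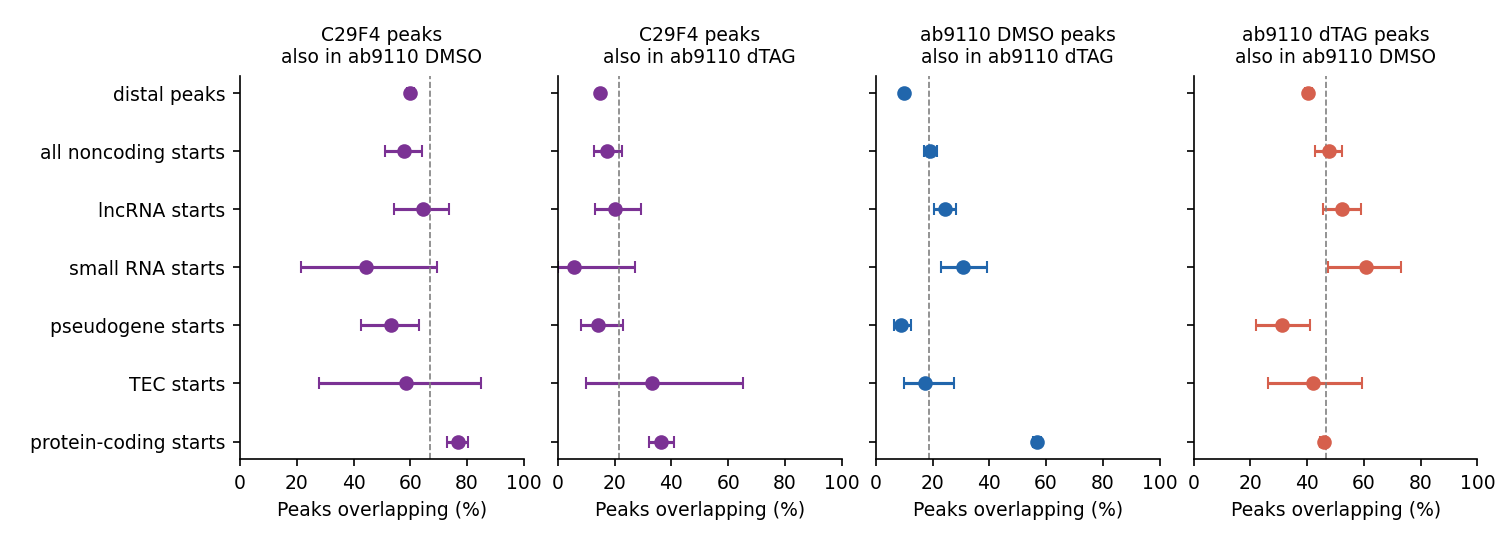
Share of ab9110 DMSO members that overlap an ab9110 dTAG peak and the reverse (percent) by class, beside distal peaks and peaks at coding starts, with exact 95% intervals that cover counting error. Small RNA and lncRNA members lie above distal peaks in both directions, and pseudogene members lie near or below them.

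Gene types with at least 15 members, a minimum set after the data were seen, showed which genes carried the class values. Among DMSO members, 43.5% at snRNA starts (20 of 46) overlapped a dTAG peak, 34.5% at processed_transcript starts (19 of 55), 25% at miRNA starts (10 of 40), 24.5% at lincRNA starts (93 of 379) and 21.4% at snoRNA starts (6 of 28). Antisense lncRNAs had 16.9% (14 of 83). Processed pseudogenes had 6.77% (21 of 310) and unprocessed ones, which arise by duplication, 7.14% (3 of 42), while processed pseudogenes annotated as transcribed had 19% (4 of 21). Among dTAG members, 70.4% at snRNA starts (19 of 27), 55.9% at lincRNA starts (90 of 161) and 25.7% at processed pseudogenes (18 of 70) overlapped a DMSO peak.

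Small RNA members of DMSO near the start overlapped dTAG more often than those farther away. Of DMSO members with the summit within 250 bp of a small RNA start, 56.0% (28 of 50) overlapped a dTAG peak, against 16.1% (14 of 87) of those farther away, a difference of 39.9 points (23.5 to 54.2). For dTAG members in DMSO the shares were 69.4% (25 of 36) and 48% (12 of 25), and the interval of the difference of 21.4 points, −3.21 to 43.4, included 0. For lncRNA members the shares were 26.5% and 22.3%, and for pseudogene members 9.35% and 8.85%, and the intervals of both differences included 0.

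CpG content of the members was compared next. A window was called CpG-rich here when the ratio of observed to expected CpG in the 300 bp around the summit was over 0.6, a split chosen after the data were seen. In DMSO, 12.7% of members were CpG-rich (144 of 1137), in C29F4 10.8% and in dTAG 38.8% (168 of 433). Over all peaks the shares were 14.8%, 10.2% and 41.4% in the same order, so the higher share in dTAG was that of the whole list and not particular to the members. The members' shares stood against 2.86% to 5.85% of distal peaks and 35.0% to 83.9% of peaks at coding starts. In the thinned DMSO list 12.6% of members were CpG-rich, 26.2 points below dTAG (20.5 to 31.6 points). By class, CpG-rich windows made up 52.5% of small RNA, 41.6% of lncRNA and 26.0% of pseudogene members of the dTAG list.

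Of the CpG-rich DMSO members 56.2% overlapped a dTAG peak, against 13.8% of the others, a difference of 42.5 points (34.0 to 50.5). The CpG-rich small RNA members reached 85.2% (23 of 27), the CpG-rich lncRNA members 58.3% (42 of 72) and the CpG-rich pseudogene members 27.0% (10 of 37). CpG-rich distal peaks had 19.7% and CpG-rich coding starts 72.2%. Among windows of 0.6 or less, lncRNA members had 18.8%, small RNA members 17.3% (19 of 110) and pseudogene members 7.18%. Here lncRNA and pseudogene members were 11.6 points apart (7.02 to 16.1), and the small RNA share was not above that of lncRNA members. In the reverse direction the split was seen for small RNA members of dTAG, of which 78.1% of the CpG-rich and 41.4% of the others overlapped a DMSO peak. CpG-rich lncRNA members of dTAG had 48.5% against 55.1% of the others, and pseudogene members 30.8% against 31.1%.

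C29F4 members did not show this split. Of its CpG-rich members 16.0% (4 of 25) overlapped a dTAG peak, against 17.4% (36 of 207) of the others, and 56.0% and 58.0% overlapped a DMSO peak. The intervals of these differences ran from −12.6 to 17.8 and from −22.0 to 16.7 points, so that a difference of moderate size could not be seen with 25 CpG-rich members.

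**Figure D4:**
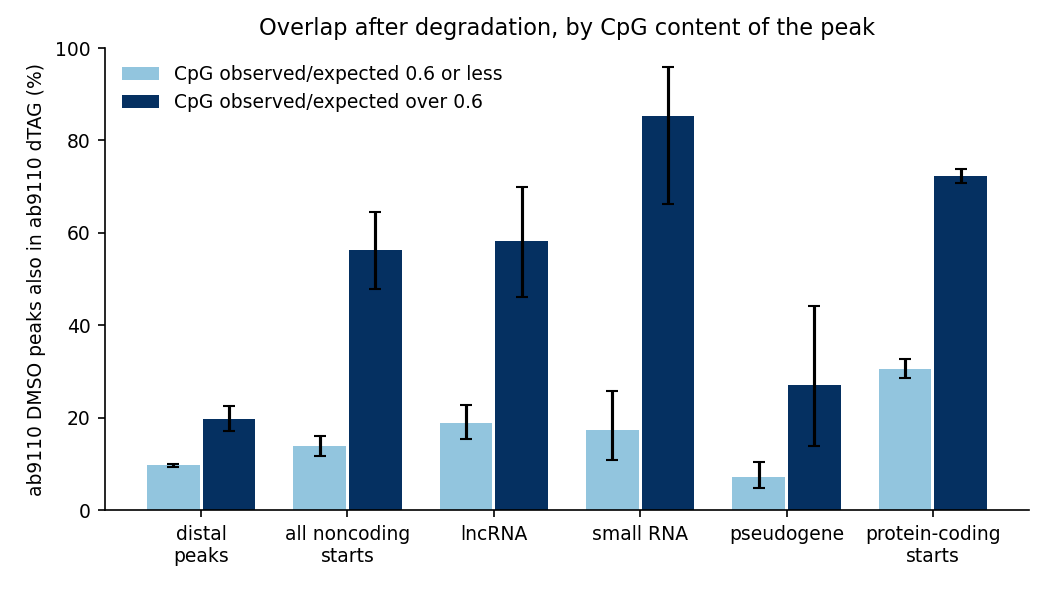
Share of ab9110 DMSO peaks that overlap an ab9110 dTAG peak (percent), split by the CpG ratio of the 300 bp around the summit, for members by class, distal peaks and peaks at coding starts, with exact 95% intervals that cover counting error. CpG-rich small RNA members reach 85.2% and CpG-rich pseudogene members 27.0%.

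The snRNA members resolved by family. Each of the 54 snRNA genes with a member was aligned over its whole length with the 11 snRNA genes that carry an Rnu name, a comparison added after the data were seen. At least 90% identity to an Rnu gene was found for 33 of the 54. Of DMSO members at these close copies, 66.7% (18 of 27) overlapped a dTAG peak, against 10.5% (2 of 19) at more diverged snRNA genes. Of dTAG members, 81.8% (18 of 22) and 20.0% (1 of 5) overlapped a DMSO peak.

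Of 12 eligible U2 genes and copies, 8 had a member in DMSO and 9 in dTAG, and all 8 DMSO members overlapped a dTAG peak. Of 6 eligible U5-like genes, 5 had a member in DMSO and the same number in dTAG, and of 26 U1-like genes 4 and 5. By contrast, 7 of 255 U6-like genes had a member in DMSO and 3 in dTAG, and 1 of the 7 DMSO members overlapped a dTAG peak. In the dTAG list 8 of 9 U2, 5 of 5 U1 and 4 of 5 U5 members had the summit within 250 bp of the start, and 0 of 3 U6 members did. U6 genes are transcribed by RNA polymerase III, the others by RNA polymerase II, and most annotated U6 genes are held to be silent copies.

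The bases before the genes differed between these families. Gm24950 and Gm23971 on chromosome 11 shared 59 of the 60 bases before the gene with Rnu2-10, and the U2 copies on chromosome 1 shared 16 to 19, as the line of Gm23472 shows. The bases before all these genes were compared position by position without gaps, so a shift by a base lowers the count. Identity within the gene came from an alignment that allows gaps, so these are unlike measures. The copies were near-identical within the gene, and on chromosome 1 fewer positions before it matched those of Rnu2-10. For the U6-like genes with a member, 15 to 19 bases matched those before Rnu6. The letters TTATATA, read on the gene's strand, stood in the 60 bases before 6 of the 255 U6-like genes (2.35%). They stood before 2 of the 3 with a dTAG member, Gm25064 and Gm24859, and before Gm23296, the 1 DMSO member of this family that overlapped a dTAG peak. Gm24859 (chr12:52603788-52603894) and Gm23296 (chr12:52604485-52604591) are neighbours and stand for 1 locus, and these letters were chosen after the sequences were seen.

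The folds at these genes were moderate in DMSO and mostly higher in the dTAG list. The median fold over all peaks was also higher in dTAG, 3.78 against 3.28 in DMSO. The shallower dTAG list needs a higher fold for a call, so these folds do not show a rise in signal. At Gm25360, a U2 copy, the fold was lower in dTAG, 3.66 against 5.07 in DMSO. Gm22265, a U5-like gene, likewise had 3.11 in dTAG against 5.19 in DMSO. Gm24950 (chr11:101641748-101641938) had 3.82 in DMSO and 8.66 in dTAG, the third highest fold of all dTAG members. Its neighbours Gm23971, Gm26316 and Rnu2-10 had 4.81, 2.96 and 4.08 in DMSO and 7.04, 5.84 and 4.90 in dTAG. These genes lie at chr11:101604850-101658428, and their reads can be exchanged between copies. Gm25099, a U5-like gene, had 2.64 and 6.84, and Gm24830, a U1-like gene, 3.00 and 6.34, with an input peak of fold 4.35 at the same start. The names in this paragraph other than Rnu2-10 were chosen after their values were seen.

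A list of known noncoding genes held 107 genes of the annotation, of which 76 had an eligible start. A member lay nearest to 5 of them in C29F4, 34 in DMSO, 29 in dTAG and 1 in the input. Of 10 eligible Rnu genes, 9 had a member in DMSO and 9 in dTAG, and 0 in C29F4. Over all eligible noncoding genes, a member lay within 1 kb of 0.886% in C29F4, 4.44% in DMSO and 1.84% in dTAG. With so low a C29F4 share, 0 among so few genes does not show that a family lacks signal there. The U1 genes Rnu1b1, Rnu1b2 and Rnu1b6 had folds of 2.50, 3.10 and 3.68 in DMSO and 4.31, 3.48 and 5.86 in dTAG. The U3 genes Rnu3b1 to Rnu3b4 had 4.40, 5.24, 2.55 and 4.51 in DMSO and 5.67, 6.37, 7.04 and 4.49 in dTAG, in numerical order. Rnu3b4 also had the input peak of the list, with a fold of 4.19. Rnu5g, a gene of the spliceosomal U5 RNA, had 3.64 and 3.94.

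Rn7sk, whose RNA holds the elongation factor P-TEFb inactive, had a fold of 7.54 in DMSO and 5.59 in dTAG. Its DMSO peak (chr9:78175034-78176678) was among the 2 strongest small RNA members of that list, beside Gm23502. Malat1, an abundant nuclear lncRNA, was 1 of 5 listed genes with a member in C29F4, with a highest fold of 2.95 in C29F4, 3.79 in DMSO and 5.86 in dTAG. Neither Rn7sk nor any Rnu gene had a C29F4 member, in a list that met 0.886% of all eligible genes.

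Snhg genes host small nucleolar RNAs in their introns. Of 8 eligible Snhg genes, 5 had a member in DMSO and 5 in dTAG, and 0 in C29F4. The C29F4 list met 0.886% of all eligible genes, so this 0 does not show a lack of signal. Snhg12 had a fold of 2.91 in DMSO and 5.81 in dTAG, Snhg15 3.32 and 4.07, Snhg17 4.57 and 3.19, and Snhg5 3.35 and 3.41. A member at Snhg6 was found in dTAG alone (4.35) and at Snhg8 in DMSO alone (4.36). The pair of Snhg17 peaks had summits 490 bp and 3 bp before the start and did not overlap.

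Platr genes encode pluripotency-associated transcripts of mESCs. Of 23 eligible Platr genes, 3 had a member in C29F4, 11 in DMSO and 5 in dTAG. Platr26 had folds of 2.69 in C29F4, 4.63 in DMSO and 4.29 in dTAG, and Platr9 2.63, 3.78 and 4.80. Platr21 had 2.74 in C29F4 and 6.25 in DMSO. No dTAG member was at Platr21, although its DMSO peak overlapped a dTAG peak of fold 4.49 that was a member at the neighbouring Gm8061. Platr22 had 3.96 in DMSO and 6.83 in dTAG, Platr19 5.39 and 5.60, and Platr12 2.77 and 3.94. Platr10, with 3 DMSO members at its starts and a highest fold of 5.53, Platr5, Platr11, Platr13 and Platr28 had members in DMSO alone, although 1 of the 3 Platr10 peaks, of fold 3.44, overlapped a dTAG peak of 3.79.

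**Figure D5:**
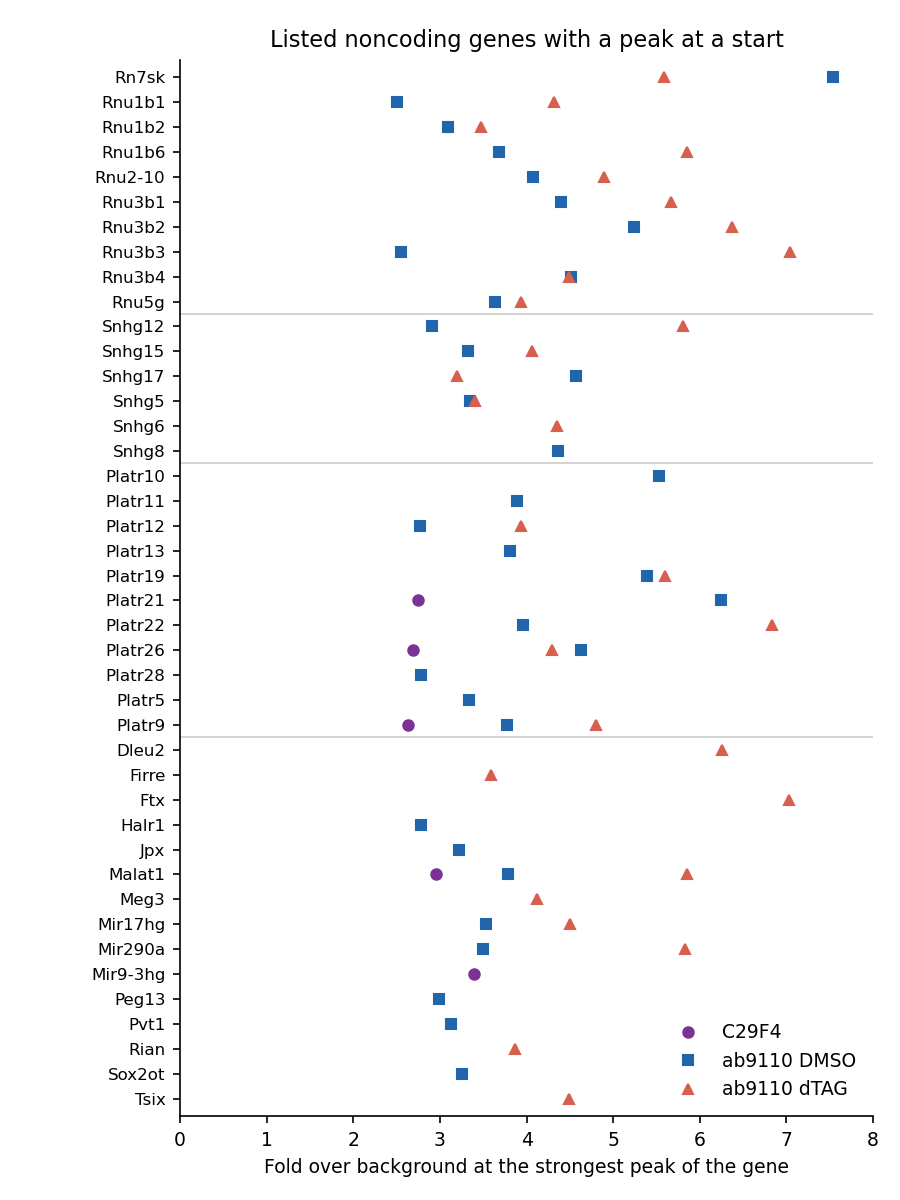
Highest fold enrichment (authors' value) of members nearest to each listed noncoding gene with at least 1 member, by list. The Rnu genes, Rn7sk and most of the Snhg genes shown have points in both ab9110 ChIP lists, while Snhg6 has a point in dTAG only and Snhg8 in DMSO only. None of these has a point in C29F4, which met 0.886% of all eligible genes. Platr genes have more points in DMSO than in dTAG.

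Genes of the X-inactivation centre and imprinted genes were met in part. Ftx, which promotes Xist, had a member in dTAG alone with a fold of 7.03, the highest of the 221 dTAG members that overlapped no peak of another list. Tsix, the antisense repressor of Xist, had dTAG members of 4.49 and 4.19. Each overlapped a DMSO peak of 3.43, and no DMSO member lay nearest to Tsix. Jpx, an activator of Xist, had a DMSO member of 3.22. Xist itself, H19, Kcnq1ot1 and Airn had none in any list. Meg3 and Rian, maternally expressed imprinted lncRNAs of chromosome 12, had dTAG members of 4.12 and 3.87, and Peg13, another imprinted lncRNA, a DMSO member of 2.99.

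Of the remaining listed genes, Mir17hg, the host of a microRNA cluster, had 3.54 in DMSO and 4.51 in dTAG. Dleu2, also a microRNA host, had dTAG members of 6.26 and 4.10, the first of which overlapped a DMSO peak of 2.65 that was a member at Gm27017. The X-linked lncRNA Firre had a dTAG member of 3.59. DMSO members alone were found at Halr1 near the Hoxa genes (2.78), Pvt1 near Myc (3.13) and Sox2ot, which overlaps Sox2 (3.26). Mir9-3hg, host of a neural microRNA, had a C29F4 member of 3.39 and none in the ab9110 lists. Neat1, Hotair and Lncenc1 had none.

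The other 4 dTAG members with the highest folds among the 221 were 3 lncRNAs and a U2 copy. 1700001L05Rik (chr15:83366929-83367625) had 6.28, the antisense gene Gm26642 (chr1:135248165-135248862) 6.12 and 5730405O15Rik (chrX:13041602-13042457) 5.84. Gm23472 (chr1:72236228-72237275) had 5.64. All 5 summits, that of Ftx included, lay 64 to 216 bp from the start, and the windows had CpG ratios from 0.486 to 0.979. Their peaks rested on 12 to 18 fragments at the summit.

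The strongest DMSO members of each class were not mainly of this kind. 1190028D05Rik, a lincRNA (chr8:52355145-52358376), had 4.46 in C29F4, 10.5 in DMSO and 3.90 in dTAG, with a CpG ratio of 0.256. Gm26564, a lincRNA, had 2.84, 8.52 and 10.7, with a window that held no CpG. The pseudogenes Gm15102 and Gm48926 had 10.6 and 8.32 in DMSO, the first with no peak in the other lists and a fully soft-masked window, and the second with 2.81 in C29F4 and 4.63 in dTAG. The TEC gene Gm37400 had 9.07 in DMSO and 7.03 in C29F4, also in a fully soft-masked window.

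Merging overlapping members of all 4 lists gave 1487 loci. Other peaks did not enter, so a locus in 1 list alone can overlap a non-member peak of another list. Of the 1487 loci, 814 (54.7%) were in DMSO alone, 221 (14.9%) in dTAG alone and 92 (6.19%) in C29F4 alone. Another 175 (11.8%) were in DMSO and dTAG, 103 (6.93%) in C29F4 and DMSO and 39 (2.62%) in all 3 ChIP lists. Over all peaks, 18.9 percent of DMSO peaks overlapped a dTAG peak, and 46.8 percent of dTAG peaks overlapped a DMSO peak. Of all C29F4 peaks, 67 percent overlapped a DMSO peak and 21.7 percent a dTAG peak. A locus with members of several classes took the first of lncRNA, small RNA, pseudogene, immune segment and TEC. The classes differed in where they stood under this rule. Of the 103 loci of C29F4 and DMSO, 46 were lncRNA, 44 pseudogene and 8 small RNA, and of the 175 loci of DMSO and dTAG, 104 were lncRNA, 24 pseudogene and 36 small RNA. At 39 loci in all 3 lists lncRNA held 24 and small RNA 1.

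The median CpG ratio was 0.235 for C29F4, 0.234 for DMSO and 0.440 for dTAG members, against 0.217, 0.211 and 0.486 over all peaks, and the median GC content 47.7%, 50.0% and 53.0%. Summits in soft-masked sequence were fewer among members than among distal peaks, 27.6% against 35.0% in C29F4, 28.7% against 39.7% in DMSO and 19.2% against 37.8% in dTAG. The summit lay in an exon of the noncoding gene for 26.7%, 31.5% and 31.4% of members and inside a coding gene for 14.2%, 15.7% and 18.9%. On chromosome X stood 4 C29F4 members (1.72%), 32 DMSO members (2.81%) and 18 dTAG members (4.16%, 2.48 to 6.49), where 2.15%, 1.94% and 1.86% of distal peaks did.

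Of 9 short motifs searched on either strand of the 300 bp windows, some are described with values, chosen by no set rule. The 9 were the TATA box TATAAA, the Sp1 core GGGCGG, the CREB site TGACGTCA, the E-box CACGTG, the NRF1 form GCGCATGC, the ETS form CCGGAAGT, the NF-Y form GATTGG, the octamer part TTTGCAT and the string TGCCGC, and none of them holds another within it. GGGCGG stood in 12.1% of C29F4, 13.5% of DMSO and 28.6% of dTAG members, against 14.9%, 16.4% and 38.4% of all peaks of each list and 4.99%, 6.57% and 10.2% of distal peaks. CCGGAAGT stood in 9 of 232 C29F4 members (3.88%, 1.79 to 7.24) against 0.699% of all C29F4 peaks, 0.406% of distal ones and 7.48% of those at coding starts. The ab9110 members had it no more often than all peaks, 0.967% against 1.29% in DMSO and 2.08% against 3.30% in dTAG. Distal peaks of these lists had it in 0.394% and 0.474%. TGCCGC stood in 14 of 232 C29F4 members (6.03%, 3.34 to 9.92) against 2.91% of all C29F4 peaks and 2.75% of distal ones. In DMSO 6.95% of members had TGCCGC against 5.54% of all peaks and 3.43% of distal ones. In dTAG 10.2% of members had TGCCGC against 13.6% of all peaks and 4.13% of distal ones. GCGCATGC stood in 3.23% of dTAG members against 3.87% of all dTAG peaks, in 0.616% of DMSO members against 1.48%, and in 0 C29F4 members. Of the 14 dTAG members with it, 13 were lncRNA members (5.58% of 233), with an interval of 3.00 to 9.35 that includes the share of all dTAG peaks. The Ftx window above holds it once, on the minus strand, as gcatgCGc. GATTGG, which holds the CCAAT box on the other strand, stood in 18.1% of C29F4 members (13.4 to 23.7) and 13.7% of all C29F4 peaks, a share inside that interval, and in 10.4% of DMSO members against 12.9% of all DMSO peaks.

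Members at microRNA genes numbered 5 in C29F4, 40 in DMSO, 9 in dTAG and 3 in the input. RefSeq (GRCm38.p6) held mature sequences for 4 of 5, 17 of 38, 6 of 9 and 1 of 3 of their genes. Those matched genes that had a member in both DMSO and dTAG are shown with bases 2 to 8, the seed that pairs with target messages, in capitals.
miR-290a-5p: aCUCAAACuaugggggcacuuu
miR-290a-3p: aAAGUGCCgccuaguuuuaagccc
miR-1955-5p: aGUCCCAGgaugcacugcagcuuuu
miR-1983: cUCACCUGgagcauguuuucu
miR-8120: uGUGCCUUgcaacuuccgagcc
No seed was shared among them. Mir290a, the first gene of a microRNA cluster abundant in mESCs, had a fold of 3.50 in DMSO and 5.83 in dTAG, with the summits 825 and 724 bp before the hairpin. Mir1955 had 5.31 and 5.07, Mir1983 2.62 and 4.81, and Mir8120 3.82 and 4.09.

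The input list held 37 members, and 5 DMSO members (0.440%) and 3 dTAG members (0.693%) overlapped an input peak, where 0.625 percent of all DMSO peaks and 0.643 percent of all dTAG peaks did. The strongest input members were at the unprocessed pseudogene Gm15753 (5.39), the microRNA gene Gm24934 (5.22) and the immunoglobulin segment Ighv8-8 (5.05), and none of these peaks overlapped a ChIP peak. Members just inside the distance limit were at Gm27520 in C29F4 (1000 bp, fold 3.47) and Gm40598 in DMSO (1000 bp, 3.13). Peaks just outside were at Gm24096 (1009 bp, 2.52) and Platr6 (1001 bp, 2.96). At the limit to coding starts, Gm22113 in DMSO lay 5007 bp away (2.77) and Gm43333 was left out at 4937 bp (3.75).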

How the data were processed

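HA ChIP-seq peak lists of EHMT2-dTAG mESCs were analysed as deposited. Groups follow the antibody, the treatment and whether a library was ChIP or input, all from the labels. Reads had been joined and trimmed by the authors, who aligned them to mm10 with STAR 2.7.10 keeping 1 location for a multimapping read, removed duplicates with Picard 2.26.0 and blacklist reads with SAMtools 1.14, called peaks with MACS2 2.2.6 and kept q under 0.05. Whether a control entered the calls is not given in the sources used here. Separate C29F4 replicates and the other inputs were not analysed here. The sequence of 1 named member is not reported here.

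The deposited fold enrichment is the authors' ratio of fragments over the summit to their expected number. The deposited −log10 p-value and −log10 q-value refer to the summit, whose offset the authors also give, and the deposited score is 10 times −log10 q in the C29F4 list and 10 times −log10 p in the others. Folds were compared within a list and set side by side between lists.

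Members, classes, genes and starts came from GENCODE M21 on the 21 chromosomes named in the report. Each member took the gene of the nearest noncoding start. The members and gene lists were chosen with earlier results of these data known. Pileup and background were reconstructed from fold and Poisson p. Shares have exact (Clopper-Pearson) 95% intervals and differences Newcombe intervals, from scipy 1.17.1 in Python 3.11.15 with numpy 2.4.6 and pandas 2.3.3. Overlap means 1 bp or more. On simulated data 0 of 1500 overlap calls per definition differed from bedtools 2.31.1, 0 of 742 member calls were wrong and 400 of 400 pileups were recovered. Identity of snRNA genes came from a global alignment (matches over alignment columns).

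Named genes followed a rule. It took the 5 C29F4 members of highest fold in ab9110 DMSO and not in dTAG or input, the 5 in both ab9110 ChIP lists and not in the input, the 5 dTAG members in no other list, the 3 strongest input members, the 2 strongest ab9110 DMSO members of each class, and members nearest to a list of known noncoding genes. Alternatives changed the distance limits, the q threshold, the overlap definition, the long-run filter, the class assignment and the depth or number of DMSO peaks.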

Additional observations from a re-analysis of the deposited data

How the results depend on the processing

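Across 10 other settings for 15 results, 59 of 104 recomputed values stayed close to the reported one and 45 moved. With summits within 500 bp of the start, members numbered 140 in C29F4, 737 in ab9110 DMSO and 23 in the input, lncRNA starts were 49.8% of DMSO and 59.5% of dTAG members, pseudogenes 19% of dTAG members, and 22.1% of DMSO members overlapped dTAG. At q under 0.01, members numbered 663 in DMSO, 275 in dTAG and 10 in the input. lncRNA starts were then 51.4% and 60.7% and pseudogenes 29.6% and 16.7% of DMSO and dTAG members, 23.7% of DMSO members overlapped dTAG and 56.0% the reverse. At q under 0.001, members numbered 389, 169 and 1, lncRNA starts were 52.4% and 62.7%, pseudogenes 28.8% and 8.28%, C29F4 members overlapped DMSO in 46.2% and dTAG in 9.14%, and the ab9110 lists overlapped in 23.4% and 52.7%. When at least 50% of the member peak had to overlap, C29F4 members overlapped DMSO in 47.0% and dTAG in 11.2%, DMSO members dTAG in 14.6% and dTAG members DMSO in 38.1%. With summits at most 250 bp apart these were 42.7%, 12.1%, 13.4% and 35.1%, and 35.3% of C29F4 members were in DMSO and not dTAG. After DMSO summits were thinned to the coverage of the dTAG list, 420 DMSO members remained. C29F4 members overlapped a peak of the thinned list in 37.5% (25.9% and not dTAG). The 420 DMSO members overlapped dTAG in 26.7%, and dTAG members overlapped a peak of the thinned list in 26.1%. With the ab9110 ChIP lists at the same number of peaks, the same 4 values were 43.1%, 29.3%, 33.7% and 35.3%. The cause of these moves was not tested beyond what each setting leaves out. The excess of lncRNA over pseudogene shares in the dTAG list was present in each setting in which both were recomputed. No paired analysis was possible because the C29F4 replicates were merged in 1 list and every other list came from 1 library, so no replicate could be left out either.

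Peaks of the shallower lists need a higher fold to be called, so a gene without a peak there is not shown to lack signal, and members with few fragments carry wide counting error. The comparison of DMSO and dTAG rests on 1 library each. Between C29F4 and ab9110, the antibody, the experiment, the clone and the library cannot be told apart. Peaks at near-identical copies have uncertain positions. The splits by CpG ratio, by gene type and by snRNA family, and the thinned class shares, were chosen after seeing the data. The part of the number of gene copies, base composition and depth in the class differences was not tested.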
